A study of Mus musculus with 7 samples.

Results

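Transcripts of genes that report or tune Notch signalling were measured in ribosome-bound RNA from retinas of adult mice. The genes, taken by symbol, were the transcriptional repressors Hes1, Hes5, Hey1, Hey2 and Heyl, the feedback inhibitor Nrarp, and the Fringe glycosyltransferases Lfng, Mfng and Rfng. Of these 9 genes, 8 were among the 12756 genes of the deposited table, and Heyl is not analysed here. Of the 7 libraries, 4 came from mice treated with an antibody against Dll4, and the other 3 from mice treated with control IgG. Dose and time of treatment are not stated in the labels. Mice of both groups were adults of the C57BL/6 strain with the genotype Cdh5-CreERT2 Rpl22 tm1.1Psam. In such mice a Cre recombinase that tamoxifen switches on, driven by the endothelial Cdh5 promoter, adds an HA tag to Rpl22, a protein of the large ribosomal subunit, and an anti-HA antibody pulls down the tagged ribosomes with their transcripts. Whether every library is from its own animal is not stated in the labels. The p-values therefore cover the spread among the 7 libraries, which may in part be technical.

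In Notch signalling a ligand on the surface of a cell, such as Dll4 or Jag1, binds a Notch receptor on its neighbour. The receptor is cut, and its intracellular domain enters the nucleus and joins the DNA-binding protein RBPJ to switch on target genes, many of them of the Hes and Hey families. Fringe enzymes add a sugar to the receptor in the Golgi and so change which ligands it responds to. In retinal vessels Dll4 is known for restraining tip cells during sprouting and for its part in arterial identity, and Hes1 and Hes5 are also known from Müller glia and retinal progenitors.

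Promoter windows of RefSeq (build GRCm38.p6) matched 5 of the 9 genes, namely Hes5, Hey2, Nrarp, Lfng and Rfng. The windows of Hes5, Hey2 and Lfng are shown because they hold the letters TGGGAA, the core to which RBPJ binds, and because these genes are among those whose levels differed most between the groups on the log scale. Each sequence runs from 250 bases before the start of the gene to 10 bases after it, 5′ to 3′ on the strand of the gene, and capitals mark TGGGAA or its reverse strand letters TTCCCA. The Hes5 window is chr4:154960673-154960932 (plus strand), that of Hey2 is chr10:30842774-30843033 (minus strand) and that of Lfng is chr5:140607091-140607350 (plus strand).
Hes5: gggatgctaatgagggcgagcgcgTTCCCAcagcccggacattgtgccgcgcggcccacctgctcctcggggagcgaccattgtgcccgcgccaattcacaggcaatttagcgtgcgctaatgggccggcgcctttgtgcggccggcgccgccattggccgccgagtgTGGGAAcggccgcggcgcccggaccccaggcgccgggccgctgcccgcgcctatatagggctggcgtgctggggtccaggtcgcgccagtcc
Hey2: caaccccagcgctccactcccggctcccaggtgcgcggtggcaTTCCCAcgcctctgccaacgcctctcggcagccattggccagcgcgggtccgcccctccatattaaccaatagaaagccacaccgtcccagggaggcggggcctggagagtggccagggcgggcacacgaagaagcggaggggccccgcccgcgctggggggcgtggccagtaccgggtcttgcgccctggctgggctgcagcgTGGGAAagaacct
Lfng: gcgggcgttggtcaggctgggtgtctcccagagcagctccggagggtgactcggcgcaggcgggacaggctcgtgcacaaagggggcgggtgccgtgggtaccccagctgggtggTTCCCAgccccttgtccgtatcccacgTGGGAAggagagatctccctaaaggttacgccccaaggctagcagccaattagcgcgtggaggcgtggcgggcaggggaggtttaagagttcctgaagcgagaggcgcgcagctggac

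Each of these windows held 2 matches of TGGGAA, searched on both strands of the full 300 bases. With the last base before the start counted as -1, the matches began at -226 and -82 in Hes5, at -207 and -3 in Hey2, where the second spans the start, and at -135 and -108 in Lfng. Over all 32851 windows of the table, 25.6% held the core at least once and 3.79% held it 2 or more times. The longer GTGGGAA occurred 2 times in Hes5, 2 times in Hey2 and 1 time in Lfng, against 6.38% of all windows with at least 1 match and 0.256% with 2 or more. The windows of Nrarp and Rfng held neither set of letters. The E-box CACGTG, which Hey proteins and other bHLH factors can bind, occurred in Nrarp at -108 and in Lfng at -112, where it overlaps the second TGGGAA, and in 7.15% of all windows. The N-box CACNAG, which Hes proteins bind, occurred 2 times in Nrarp, 1 time each in Lfng and Rfng, and in 42.5% of all windows. These matches describe letters and not binding. The windows shown were picked for holding TGGGAA, so the shares over all windows are no test of them.

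The libraries held 1356192 to 1771086 reads over the listed genes, so that 1 read was worth 0.565 to 0.737 CPM (reads of a gene per 1000000 reads of the library) and 3 reads 1.69 to 2.21 CPM. Over the 7 libraries the tested members had 157 to 806 reads each, and Hey2 had 80. All 20 general endothelial markers were detected, at 0.433% to 0.567% of CPM in the anti-Dll4 libraries and 0.216% to 0.323% in the control IgG libraries (exact permutation p = 0.0286, two-sided, the smallest that 35 splits of 7 libraries allow). The 16 rod markers made up 1.15% to 2.10% in anti-Dll4 and 2.52% to 2.63% in control IgG libraries. The 12 Müller glia markers made up 0.201% to 0.307% in anti-Dll4 and 0.188% to 0.295% in control IgG libraries. Of 12 pericyte and smooth muscle markers 8 were in the table, at 0.0130% to 0.0495% in anti-Dll4 and 0.0153% to 0.0241% in control IgG libraries. None of the endothelial, rod or Müller glia markers was at 0 throughout a group. RNA of these cell types was thus in the same libraries as that of endothelial cells. With the mean of the rod markers as a covariate, the log2 changes given below were -1.48 for Hes5, -0.69 for Hey1, -3.33 for Hey2, -0.64 for Lfng and -3.95 for Nrarp. Those of Hes1, Mfng and Rfng were -1.25, 0.40 and 0.66. The SE was 2.38 for Hes5 and 2.33 for Hey1, against 1.81 and 1.79 without the covariate. Since the rod shares of the groups did not overlap, rod RNA and treatment cannot be told apart here, and these are not changes corrected for rod RNA. The part of the other cell types in these values was not tested. In such bulk RNA, fewer cells of a type and less RNA per cell cannot be told apart.

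Setting anti-Dll4 against control IgG libraries asks whether transcripts downstream of Notch differ when the ligand is blocked. Hes5, Hey1 and Hey2 were read at 3 reads or fewer in 3, 3 and 4 of the 4 anti-Dll4 libraries, and in 0, 0 and 1 of the 3 control IgG libraries. In the same order of groups the numbers were 3 and 1 for Nrarp, 2 and 0 for Mfng, and 1 and 0 for Lfng. For Hes1 they were 0 and 1, and for Rfng 0 and 0. Of the 6816 genes with a mean CPM in the members' range, 76.1% had at least 1 library at 3 reads or fewer, as had 87.5% of the 8 members. Lfng had its 3 lowest values in anti-Dll4 libraries, while Hes1, Nrarp and Rfng had high and low libraries in both groups. Mfng had both its highest and its lowest values in anti-Dll4 libraries. None of the 7 members with enough reads to be tested (at least 1 CPM in at least 3 libraries) passed an adjusted p of 0.05 in limma, with 0 higher and 0 lower, where 0.119% of the 10899 genes tested passed. At an unadjusted p under 0.05 the tested members also gave 0 calls, against 7.09% of all genes tested. Of the 7 tested, 6 had a log2 change below 0, as had 54.5% of all genes tested, and 4 had a change of -1 or lower, as had 24% of all. Their median change was -1.30 on the log2(CPM + 1) scale, and that of all genes tested was -0.14. Among the changes of all genes tested, Hes5 stood at percentile 1.06, Hey1 at 2.15, Lfng at 9.38 and Mfng at 18.4. Nrarp stood at 26.9, Rfng at 51.1 and Hes1 at 75.1. All genes tested were not matched to the members in level, and the members' median SE of 1.70 was above theirs. Whether genes of like level and spread have such changes was not tested. No member had CPM values that kept the groups apart (0 of 8), against 7.59% of all genes tested.

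**Figure D1:**
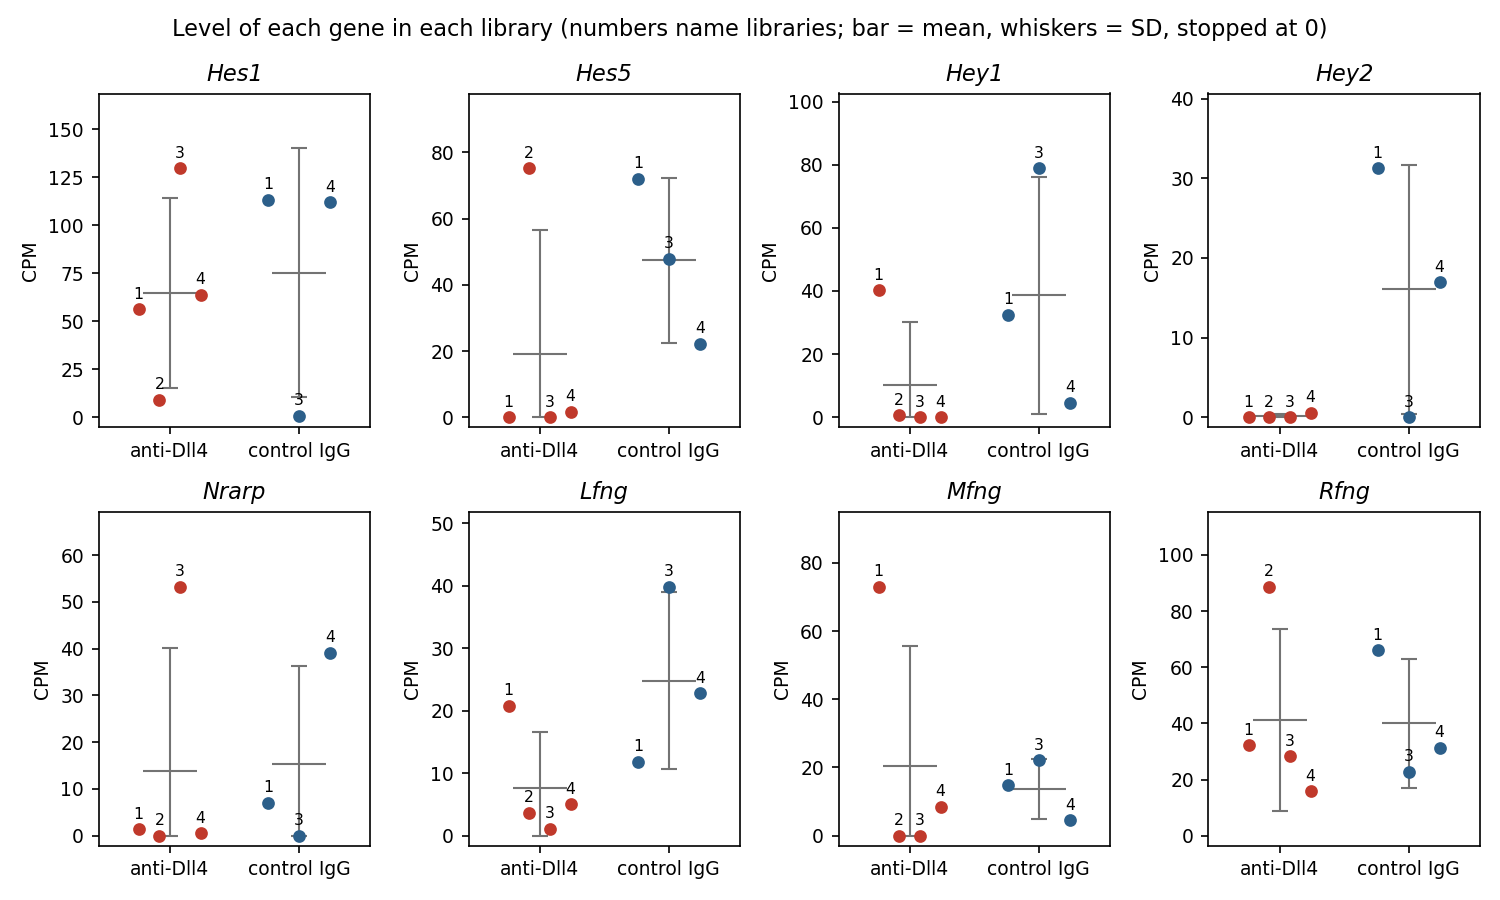
CPM of each gene in each library, with anti-Dll4 libraries in red and control IgG libraries in blue. Numbers name the libraries, bars are group means and whiskers the SD, stopped at 0. Hes5, Hey1 and Nrarp each have 1 high anti-Dll4 library and 3 at or near 0, and Hey2 has at most 1 read in any anti-Dll4 library.

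Hes1, a bHLH repressor that many cell types use, stood at 56.2, 9.17, 129.7 and 63.8 CPM in anti-Dll4 1 to 4, against 113, 0.737 and 112 CPM in control IgG 1, 3 and 4. The single read of control IgG 3 was the lowest value and anti-Dll4 3 the highest, and the groups overlapped over most of their range. The log2 change was 0.74 ± 1.35 (SE, 95% interval -2.08 to 3.56, adjusted p = 0.938, limma), while the mean CPM was 64.7 ± 49.6 (SD, n = 4) in anti-Dll4 and 75.4 ± 64.6 (SD, n = 3) in control IgG libraries, in the other direction. Without control IgG 3 the log2 change was -1.27, and with libraries scaled on endothelial markers it was -0.18.

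Hes5, a Hes repressor with a narrower pattern of expression, was read in each control IgG library. It stood at 0, 75.2, 0 and 1.69 CPM in anti-Dll4 1 to 4, against 72.0, 47.9 and 22.2 CPM in control IgG 1, 3 and 4. Anti-Dll4 2 was above every control IgG library, and the other anti-Dll4 libraries were below them all. Its log2 change of -3.52 ± 1.81 (SE, 95% interval -7.28 to 0.24, adjusted p = 0.711, limma) was the lowest among the tested members and stood at percentile 1.06 of the changes of all genes tested. Without anti-Dll4 2 the change was -4.97, and without anti-Dll4 1 or anti-Dll4 3 it was -2.88.

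Hey1, a repressor that endothelial cells make in answer to Notch, stood at 40.2, 0.612, 0 and 0 CPM in anti-Dll4 1 to 4, against 32.5, 78.9 and 4.56 CPM in control IgG 1, 3 and 4. Anti-Dll4 1 lay within the range of the control IgG libraries, and the other anti-Dll4 libraries held at most 1 read. The log2 change was -3.11 ± 1.79 (SE, 95% interval -6.83 to 0.62, adjusted p = 0.742, limma), at percentile 2.15 of all genes tested. Without anti-Dll4 1 it was -4.39, and without control IgG 3 it was -2.26.

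Hey2, a repressor tied to arterial fate, was read 0, 0, 0 and 1 times in anti-Dll4 1 to 4, against 53, 0 and 26 times in control IgG 1, 3 and 4. High values thus stood in control IgG libraries only, but control IgG 3 had no read either. It was below the filter on low values, and in a fit of all 12756 genes its log2 change was -2.90 ± 1.39 (SE, 95% interval -5.77 to -0.02, adjusted p = 0.809, limma). That change was -4.43 without control IgG 3 and -1.92 without control IgG 1. Pooled over libraries, its 1 read in anti-Dll4 against 79 in control IgG gave a ratio of reads per library total of 0.00871. The exact 95% interval was 0.000218 to 0.0499, for counting error only and with each read taken as independent. Over libraries the mean was 0.141 ± 0.282 CPM (SD, n = 4) in anti-Dll4 and 16.1 ± 15.7 CPM (SD, n = 3) in control IgG, and the exact permutation p was 0.143 (two-sided).

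Nrarp, an ankyrin repeat protein that Notch induces and that limits the receptor's intracellular domain, stood at 1.34, 0, 53.2 and 0.565 CPM in anti-Dll4 1 to 4. In control IgG 1, 3 and 4 it stood at 7.08, 0 and 39.1 CPM. Most of its reads thus came from anti-Dll4 3 and control IgG 4, and each group had a library at 0. The log2 change of -0.87 ± 1.70 (SE, 95% interval -4.41 to 2.67, adjusted p = 0.940, limma) turned to 0.40 without control IgG 4.

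Whether the changes of the Fringe genes differ from each other was not tested. Lfng, which is often the most active of the Fringe enzymes on Notch, stood at 20.8, 3.67, 1.13 and 5.08 CPM in anti-Dll4 1 to 4, against 11.8, 39.8 and 22.8 CPM in control IgG 1, 3 and 4. The groups overlapped through anti-Dll4 1 and control IgG 1. Its mean was 7.66 ± 8.88 CPM (SD, n = 4) in anti-Dll4 and 24.8 ± 14.1 CPM (SD, n = 3) in control IgG libraries, with an exact permutation p of 0.0857 (two-sided, 1 of 16 such tests, not adjusted). The log2 change was -1.94 ± 1.64 (SE, 95% interval -5.36 to 1.48, adjusted p = 0.837, limma), and it ran from -2.56 to -1.44 with each library left out in turn.

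Mfng, another Fringe enzyme, stood at 73.0, 0, 0 and 8.47 CPM in anti-Dll4 1 to 4, against 14.8, 22.1 and 4.56 CPM in control IgG 1, 3 and 4. The anti-Dll4 libraries thus held both its highest and its lowest values. Its log2 change was -1.30 ± 1.81 (SE, 95% interval -5.07 to 2.47, adjusted p = 0.910, limma), whereas its mean CPM was higher in anti-Dll4, at 20.4 ± 35.3 CPM (SD, n = 4) against 13.8 ± 8.82 CPM (SD, n = 3) in control IgG. The log2 change was -2.58 without anti-Dll4 1 and -0.51 without anti-Dll4 2 or anti-Dll4 3.

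Rfng, the third Fringe enzyme, was read in all 7 libraries, at 32.1, 88.7, 28.3 and 15.8 CPM in anti-Dll4 1 to 4 against 66.1, 22.9 and 31.3 CPM in control IgG 1, 3 and 4. The groups overlapped over most of their range. The mean was 41.2 ± 32.4 CPM (SD, n = 4) in anti-Dll4 and 40.1 ± 22.9 CPM (SD, n = 3) in control IgG libraries, and the log2 change was -0.10 ± 1.06 (SE, 95% interval -2.31 to 2.11, adjusted p = 0.990, limma). That change was 0.33 without control IgG 1 and 0.25 without anti-Dll4 4. The interval of each member's change spans several log2 units, so a p above the threshold does not show that levels were alike.

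**Figure D2:**
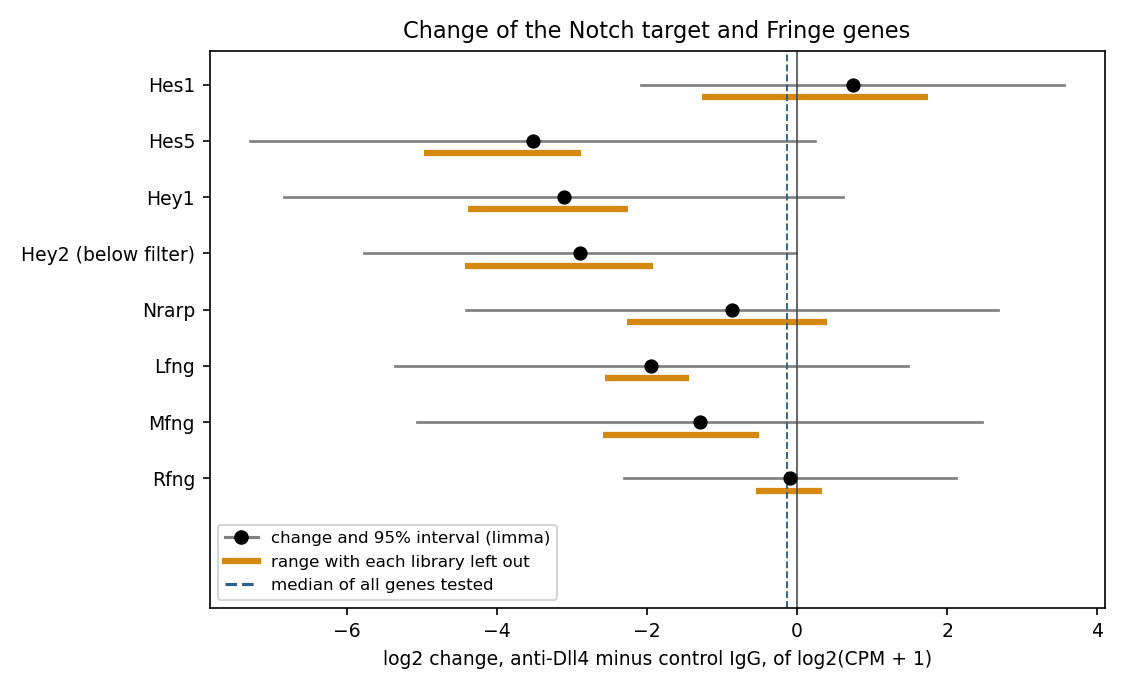
Log2 change of each gene, anti-Dll4 minus control IgG, on the log2(CPM + 1) scale, with its 95% limma interval (grey) and the range of the change with each library left out in turn (orange). The dashed line is the median of all genes tested, -0.14, and Hey2 is from the fit of all listed genes. Of the 7 tested genes each interval includes 0, and the orange ranges of Hes1, Nrarp and Rfng lie on both sides of 0.

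Libraries without a read were more frequent among the anti-Dll4 values of these genes. Of 32 member values in anti-Dll4 libraries 10 were 0 (31.2%), and of 24 in control IgG libraries 2 were 0 (8.33%). By library, 2, 3, 4 and 1 of the 8 members were at 0 in anti-Dll4 1 to 4. In control IgG 1, 3 and 4 the numbers were 0, 2 and 0, so the groups overlapped. Hey2 gave 3 of the 10 zeros in anti-Dll4 libraries. Values of several genes in a library are not replicates of the treatment, and this difference was not tested. Over the 6816 genes whose mean CPM lay within the members' range of 6.97 to 69.3, the shares of values at 0 were 16.8% in anti-Dll4 and 15.0% in control IgG libraries. More than 3 reads were found for 5, 4, 3 and 4 of the 8 members in anti-Dll4 1 to 4, and for 8, 5 and 8 in control IgG 1, 3 and 4. Beside Hey2, which genes lacked reads differed between libraries. Anti-Dll4 1 had Hey1, Lfng and Mfng but no read of Hes5, anti-Dll4 2 had Hes5 but no read of Nrarp or Mfng, and anti-Dll4 3 had Nrarp but no read of Hes5, Hey1 or Mfng. Anti-Dll4 4 had no read of Hey1. Control IgG 3, the shallowest library, had no read of Hey2 or Nrarp. A library with 0 reads was not particular to these genes, since 51.8% of the 6816 genes had at least 1 such library, as had 5 of the 8 members. By role, the summed CPM of Hes1, Hes5, Hey1 and Hey2 ran from 66.1 to 129.7 in anti-Dll4 and from 128 to 249 in control IgG libraries. The sum of the Fringe genes ran from 29.4 to 126 in anti-Dll4 and from 58.7 to 92.6 in control IgG libraries.

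Since the share of endothelial marker reads was higher in the anti-Dll4 libraries, each gene was also set against the 20 endothelial markers of its own library. On this scale all 8 members had a lower mean in anti-Dll4, as had 76.5% of all genes tested. Lfng stood at 4.03, 0.848, 0.200 and 1.08 per 1000 endothelial marker reads in anti-Dll4 1 to 4, against 5.33, 12.3 and 10.5 in control IgG 1, 3 and 4. Every anti-Dll4 library was below every control IgG library for Lfng, with means of 1.54 ± 1.70 in anti-Dll4 (SD, n = 4) and 9.40 ± 3.63 in control IgG (SD, n = 3) and an exact permutation p of 0.0286 (two-sided, the smallest possible, not adjusted). It was the single member with such separation (1 of 8), and 16.4% of all genes tested were separated in this direction. Hey1 averaged 1.98 ± 3.87 in anti-Dll4 (SD, n = 4) and 13.7 ± 11.2 in control IgG (SD, n = 3, exact permutation p = 0.0857). Hes5 averaged 4.44 ± 8.64 in anti-Dll4 and 19.2 ± 11.8 in control IgG (exact permutation p = 0.114), and Hes1 averaged 12.4 ± 8.54 in anti-Dll4 and 34.4 ± 29.6 in control IgG (exact permutation p = 0.286). The remaining members had exact permutation p of 0.143 (Hey2) to 0.886 (Mfng). With Ly6c1, Flt1 and Kdr left out of the marker sum, Lfng averaged 2.33 ± 2.61 in anti-Dll4 and 16.5 ± 5.39 in control IgG. The groups did not overlap for Lfng on that scale either. Hes1 then averaged 17.1 ± 10.5 in anti-Dll4 and 64.1 ± 55.3 in control IgG, so the size of the differences depends on the markers chosen. A higher sum of endothelial markers lowers every such ratio, and whether a transcript came from endothelial cells was not tested.

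**Figure D3:**
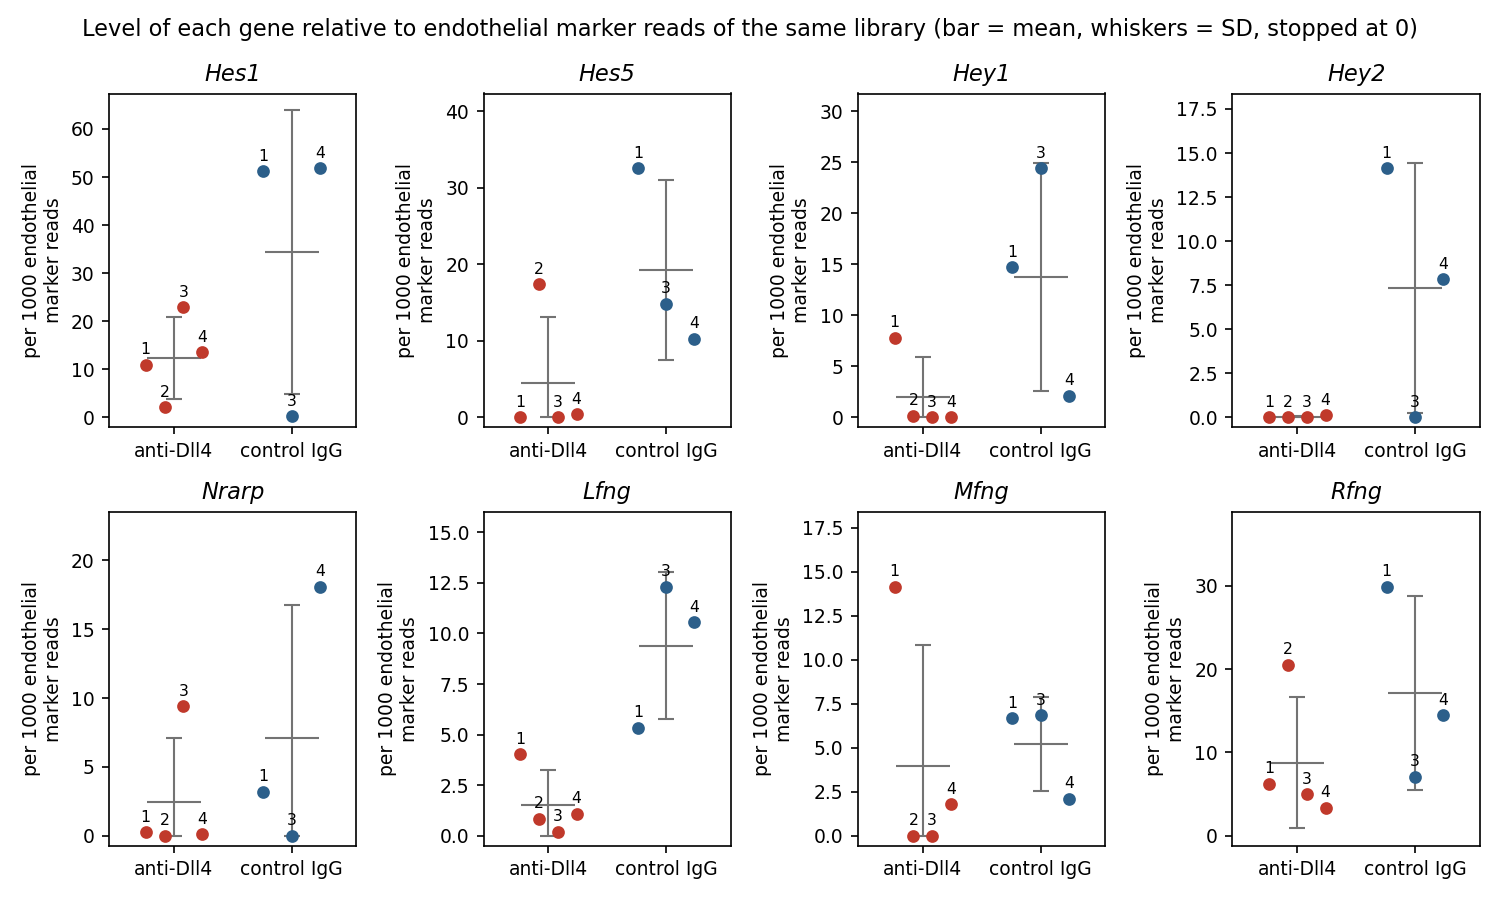
Level of each gene per 1000 reads of the 20 endothelial markers in the same library, with anti-Dll4 in red and control IgG in blue, means as bars and SD as whiskers stopped at 0. Lfng is the single gene whose 4 anti-Dll4 values (0.200 to 4.03) all lie below the 3 control IgG values (5.33 to 12.3).

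Other genes of the Notch pathway were listed by role under 96 symbols, some genes under both an older and a newer symbol. Of these symbols, 83 were in the table and 77 were tested, with 0 past the threshold in either direction. Their median change was 0.09, with 41 positive and 36 negative, and at an unadjusted p under 0.05 there were 6 higher and 2 lower genes, where 3.68% and 3.41% of all genes tested were higher and lower. Dll4, the ligand that the antibody binds, stood at 45.5, 183, 120 and 139 CPM in anti-Dll4 1 to 4, against 1.18, 11.8 and 22.2 CPM in control IgG 1, 3 and 4 (log2 change 3.67 ± 1.10, SE, adjusted p = 0.358, limma). All anti-Dll4 libraries lay above all control IgG libraries for Dll4. Of the 77 genes, 6 had groups that did not overlap, a share near the 7.59% of all genes tested. Dll4, Notch4, Adam17 and Id3 were higher in anti-Dll4 libraries, and Ncor1 and Tle4 were lower. Values of the pathway genes, here and below, rest on CPM and are not per endothelial marker reads. The endothelial markers averaged 0.496% of CPM in anti-Dll4 and 0.254% in control IgG libraries. The ligand Dll1 averaged 1.51 ± 3.01 CPM in anti-Dll4 (SD, n = 4) and 40.7 ± 39.8 CPM in control IgG (SD, n = 3).

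The receptors had 3 positive and 1 negative change, with Notch2 at 12.5 ± 11.7 CPM in anti-Dll4 (SD, n = 4) and 49.2 ± 37.5 CPM in control IgG (SD, n = 3). Notch4 went the other way, at 38.7 ± 20.3 CPM in anti-Dll4 and 16.2 ± 5.13 CPM in control IgG. Genes of receptor cleavage (3 positive, 4 negative) and of glycosylation beside the Fringes (4 positive, 5 negative) had medians of -0.18 and -0.02. Of the cleavage genes, Adam17 averaged 460 ± 101 CPM in anti-Dll4 and 292 ± 71.3 CPM in control IgG. Kdelc1, an enzyme that adds glucose to Notch, averaged 1.12 ± 1.58 CPM in anti-Dll4 and 15.6 ± 16.7 CPM in control IgG. Poglut1, another such enzyme, averaged 41.9 ± 33.2 CPM in anti-Dll4 and 99.1 ± 53.5 CPM in control IgG. The nuclear partners had 9 positive and 6 negative changes. Ncor1, a co-repressor scaffold that works with many transcription factors, averaged 693 ± 386 CPM in anti-Dll4 (SD, n = 4) and 1933 ± 553 CPM in control IgG (SD, n = 3). Its log2 change was -1.69 ± 0.43 (SE, adjusted p = 0.178, limma). The groups did not overlap for Ncor1, as for 6 of the 77 pathway genes and 7.59% of all genes tested. Ctbp1, of the same list, averaged 339 ± 164 CPM in anti-Dll4 and 160 ± 109 CPM in control IgG.

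The Groucho co-repressors, which Hes proteins recruit, had 3 positive and 3 negative changes. Tle4 averaged 27.1 ± 26.8 CPM in anti-Dll4 and 108 ± 59.4 CPM in control IgG, and Tle1 40.8 ± 33.0 CPM in anti-Dll4 and 2.21 ± 3.83 CPM in control IgG. The list of turnover and trafficking genes had 5 positive and 10 negative changes. The related helix-loop-helix genes had 5 positive and 1 negative, among them Id3 and Id1, targets of BMP signalling, with log2 changes of 1.26 ± 0.41 and 1.11 ± 0.52 (SE, adjusted p = 0.412 and 0.695, limma). Other genes used as Notch targets in vessels, 10 of them tested, had 6 positive and 4 negative changes with a median of 0.66. This list was not split into genes that Notch raises and genes that it lowers. Its median therefore gives no direction of Notch activity. Flt4, a VEGF receptor of sprouting and lymphatic endothelium, averaged 1.79 ± 2.33 CPM in anti-Dll4 and 44.9 ± 44.6 CPM in control IgG with 4 and 3 libraries (SD). Cdkn1b went the other way, at 131 ± 82.8 CPM in anti-Dll4 and 47.8 ± 17.5 CPM in control IgG. Medians of short lists move with single genes, and none of these lists was tested as a set.

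**Figure D4:**
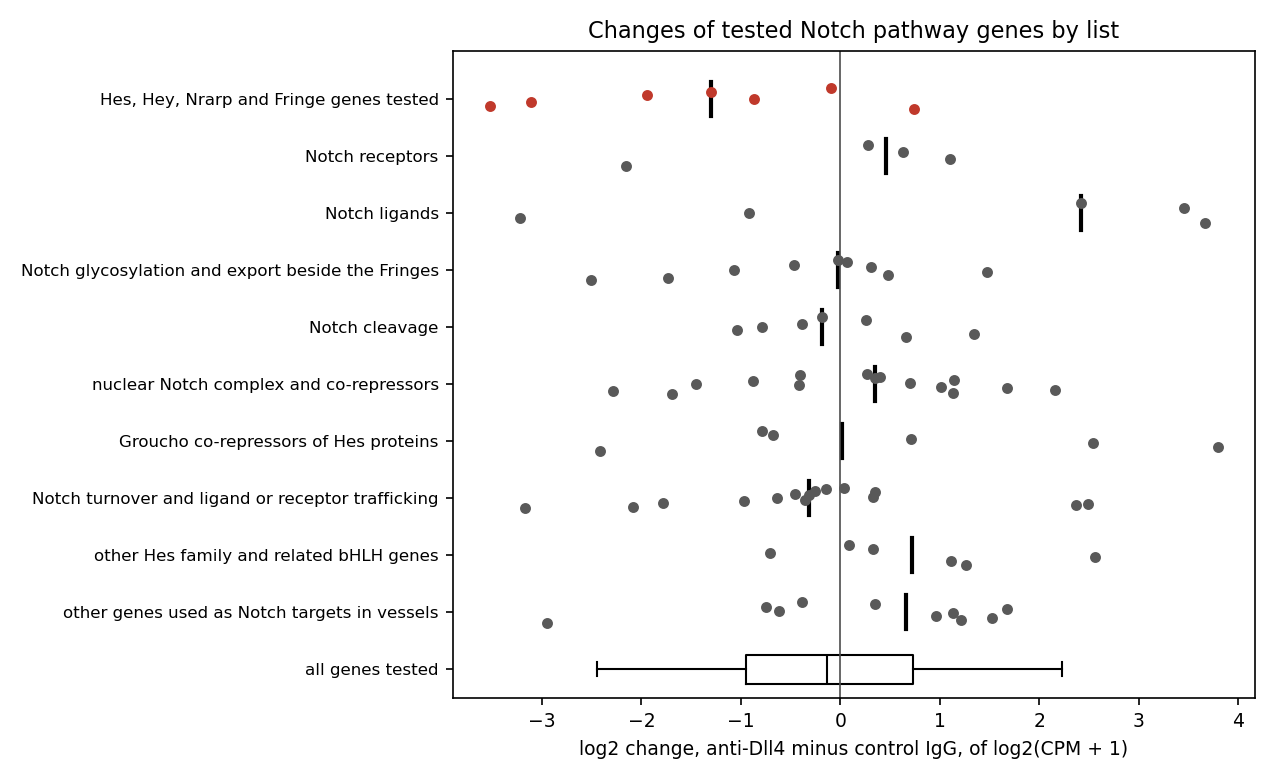
Log2 change of each tested gene, anti-Dll4 minus control IgG, by list, with the list median as a bar. The Hes, Hey, Nrarp and Fringe genes are in red. The box for all genes tested spans the quartiles, with whiskers at the 5th and 95th percentiles. The red genes have a median of -1.30 and run from -3.52 to 0.74.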

How the data were processed

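QuantSeq libraries, which read 3′ ends of polyadenylated RNA, were made from anti-HA pulldowns and sequenced as single-end reads, per the labels' protocols. The submitters' processing notes name cutadapt, TopHat2 and bedtools without versions or roles, and the human build hg19, although the symbols are those of mouse genes. Annotation, counting rule and strand use are not stated in the labels or the file. In GENCODE M21, Hes5 and Nrarp each overlap a gene on the opposite strand, so their reads are uncertain in that respect.

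The table deposited by the authors holds log10 values of CPM + 1. Turned back, CPM summed to 1000000 per library and 100% of values were whole multiples of 1 read (tolerance 1e-06). All 7 columns were used. Column control IgG 1 matches no title by number (the remaining title has 15) and served as a control library without a number. The protocol names no molecular identifiers, so several reads may be copies of 1 molecule. The interval of the pooled Hey2 ratio takes each read as independent and leaves out the spread between libraries, so it may be too narrow. The limma intervals cover the spread between libraries.

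The 10899 genes that reached 1 CPM in 3 or more libraries were tested on log2(CPM + 1) in limma 3.58.1 (R 4.3.3; mean-variance trend, two-sided, Benjamini-Hochberg over all genes tested, threshold 0.05). The file's name gave log values, and the conversion from log10 kept the planned test. The added 1 shrinks changes of low genes. Single genes were also compared by exact permutation of mean CPM over 35 splits. The fit was tested on simulated data. Alternatives were other pseudocounts, filters, variance models, scalings, a covariate, voom, a block and leaving out each library. Promoter letters came from RefSeq. Members and gene lists were chosen with earlier results of these data known. All members are named, with Dll4 and up to 3 genes per pathway list by smallest p, and up to 3 genes most like a member with a mean of at least 20 CPM.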

Additional observations from a re-analysis of the deposited data

Results flagged for a closer look

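Among the 4 anti-Dll4 libraries, 5 of the 8 members had 1 library far from the rest, by a gap to the nearest other library above Dixon's critical share of the whole range. Hes5 stood at 75.2 CPM in anti-Dll4 2, Hey1 at 40.2 CPM in anti-Dll4 1 and Nrarp at 53.2 CPM in anti-Dll4 3. Mfng stood at 73.0 CPM in anti-Dll4 1. Hey2 stood at 0.565 CPM in anti-Dll4 4, which is 1 read against none in the others. Chance flags about 1 in 20 groups of normally spread values. In these libraries 27.9% of the 6816 genes with a mean CPM in the members' range had such a library, so it was common at these levels. The high libraries differed between genes, and their cause was not tested.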

How the results depend on the processing

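No member passed under any of the 19 alternatives (0 in each), and the lowest adjusted p of a member was 0.217, for Hes5 with libraries scaled on endothelial markers. Hes5, Hey1, Hey2 and Lfng had changes below 0 under all alternatives run for them. Other filters, a fit without the mean-variance trend and a spread per group leave the change itself as it was, so these could not alter its sign. With the mean of the rod markers as covariate, which cannot be told apart from treatment, the changes were -1.48, -0.69, -3.33 and -0.64. Hes1 turned to -0.18 with scaling on endothelial markers and to -1.25 with the rod covariate. That covariate also turned Mfng to 0.40 and Rfng to 0.66. With each library left out in turn, Hes1 ran from -1.27 to 1.75, Nrarp from -2.26 to 0.40 and Rfng from -0.55 to 0.33. A replicate block on the title numbers, which only 2 pairs share, turned Nrarp to 0.54. The cause was not tested.

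Of all genes tested, 13 passed. The number was 0 without the mean-variance trend, 38 with voom on whole reads, 71 with scaling on endothelial markers and 1 with the rod covariate. Scaling on endothelial markers moved the median change of all genes to -0.99, and the split to 2 higher and 69 lower, against 13 higher and 0 lower. Voom gave 14 higher and 24 lower. Without single libraries it ran from 3 to 20. It was 3 with the replicate block on title numbers and 4 with a block on column numbers, which was chosen after seeing the data. By column number, same-numbered libraries correlated across genes at 0.05 to 0.07 in their deviations, under a cutoff of 0.1. The main fit therefore used no pairing. The other pairs ran from -0.04 to 0.02, so each same-numbered pair was the highest for its libraries. Whether the numbers pair samples cannot be told from these values. At 1.69 to 2.21 CPM for 3 reads, values of 0 show only that a gene was not detected at this depth.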

Other observations

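For members with a mean of at least 20 CPM, the genes with the most similar values over the 7 libraries were taken by the root mean square difference of centred log2(CPM + 1) values, among 7262 other genes at that level. Closest to Hes1 were Lrp4, Otud5 and Mrpl4, at 0.50, 0.67 and 0.69 log2 units, where the median gene differed by 2.50. Closest to Hes5 were Zfp772, Jakmip3 and Cnmd, at 0.36, 0.41 and 0.63, with a median of 2.87. Closest to Hey1 were Shroom2, Ube2n and Arih1, at 0.44, 0.59 and 0.65, with a median of 2.73. Closest to Rfng were Cacna1b, Gpm6a and Wdr3, at 0.28, 0.28 and 0.33, with a median of 1.49. With 7 libraries and this many genes, such likeness is a description of these libraries.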
